A study of Caenorhabditis elegans with 2 samples.

Results

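The genes that encode translation initiation and elongation factors were examined for binding of SUP-37, a C. elegans protein whose gene was identified through suppression of pha-1 mutants. A gene belonged to the set when it is protein-coding in the Ensembl annotation of WBcel235 and its symbol starts with eif-, eef-, ife-, ifg- or iff-. The rule took 39 of the 19973 protein-coding genes on the nuclear chromosomes, of which 31 encode initiation factors or related proteins and 8 encode elongation factors, with the eIF5A genes iff-1 and iff-2 counted among the latter. The rule itself uses names only, but the set was chosen for study with earlier results of these data known, so its share of bound genes is a description and not independent evidence.

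The assay was ChIP-seq (chromatin immunoprecipitation followed by sequencing) on whole L1 larvae, hatched from bleached embryos and starved, with an age of 6 hours in the labels. All animals were of strain OP611, mixed in sex, with the allele unc-119(tm4063) and the array wgIs611, which carries unc-119(+) and sup-37 fused to TY1, EGFP and 3xFLAG. The 2 biological replicates form 1 group, and a strain without the tag was not analysed here. The promoter that drives the transgene is not given in the sources used here, and the sample description names an antibody to GFP whereas the antibody label reads sup-37. Whole animals were used, so a peak cannot be placed in a tissue, and the cell type was not checked because peaks do not measure expression. Each replicate and the pool of both came as a list of 30000 regions, beside 924 peaks kept by the authors' filter on the irreproducible discovery rate (IDR), which scores how alike replicates rank their peaks. Regions were ranked within each list by the authors' signal, a strength per region of unstated scale, with rank 1 the strongest. The lists hold no read counts, so the depth of the libraries is unknown, and with 1 group of 2 samples there is no test between conditions. Intervals below are exact binomial (Clopper-Pearson) 95% intervals and cover counting error only.

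Protein synthesis starts when eIF2 brings the initiator tRNA to the small ribosomal subunit, with eIF3 as the scaffold and eIF4E, bound to the mRNA cap, recruiting the subunit through eIF4G. eIF2B recharges eIF2 with GTP, which makes it a control point of cellular stress responses. In elongation, eEF1A delivers aminoacyl-tRNA to the ribosome and is recharged by an exchange complex that holds the eEF1B subunits and eEF1G. eEF2 moves the ribosome along, and eIF5A, a protein with the modified amino acid hypusine, relieves stalls. Starved L1 larvae hold their growth in arrest until food arrives.

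SUP-37 peaks lay at the promoters of 10 of the 39 translation factor genes, among them most genes of elongation and a minority of those of initiation. Here bound means that the summit of an IDR peak lay between 1000 bp upstream and 200 bp downstream of its annotated 5′ end. The bound genes were eif-3.C, iff-2, eef-2, eif-3.B, eef-1A.2, eif-2Bgamma, eef-1G, eef-1B.1, eef-1A.1 and ife-2, in the order of their ranks from 55 to 522. They make up 25.6% of the set (13.0 to 42.1), beside 3.44% of all protein-coding genes, so the share was 7.55 times that of the 19934 other genes. Elongation factor genes were bound in 6 of 8 cases (75.0%, 34.9 to 96.8) and initiation factor genes in 4 of 31 (12.9%, 3.63 to 29.8). The difference between these groups was not tested.

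**Figure D1:**
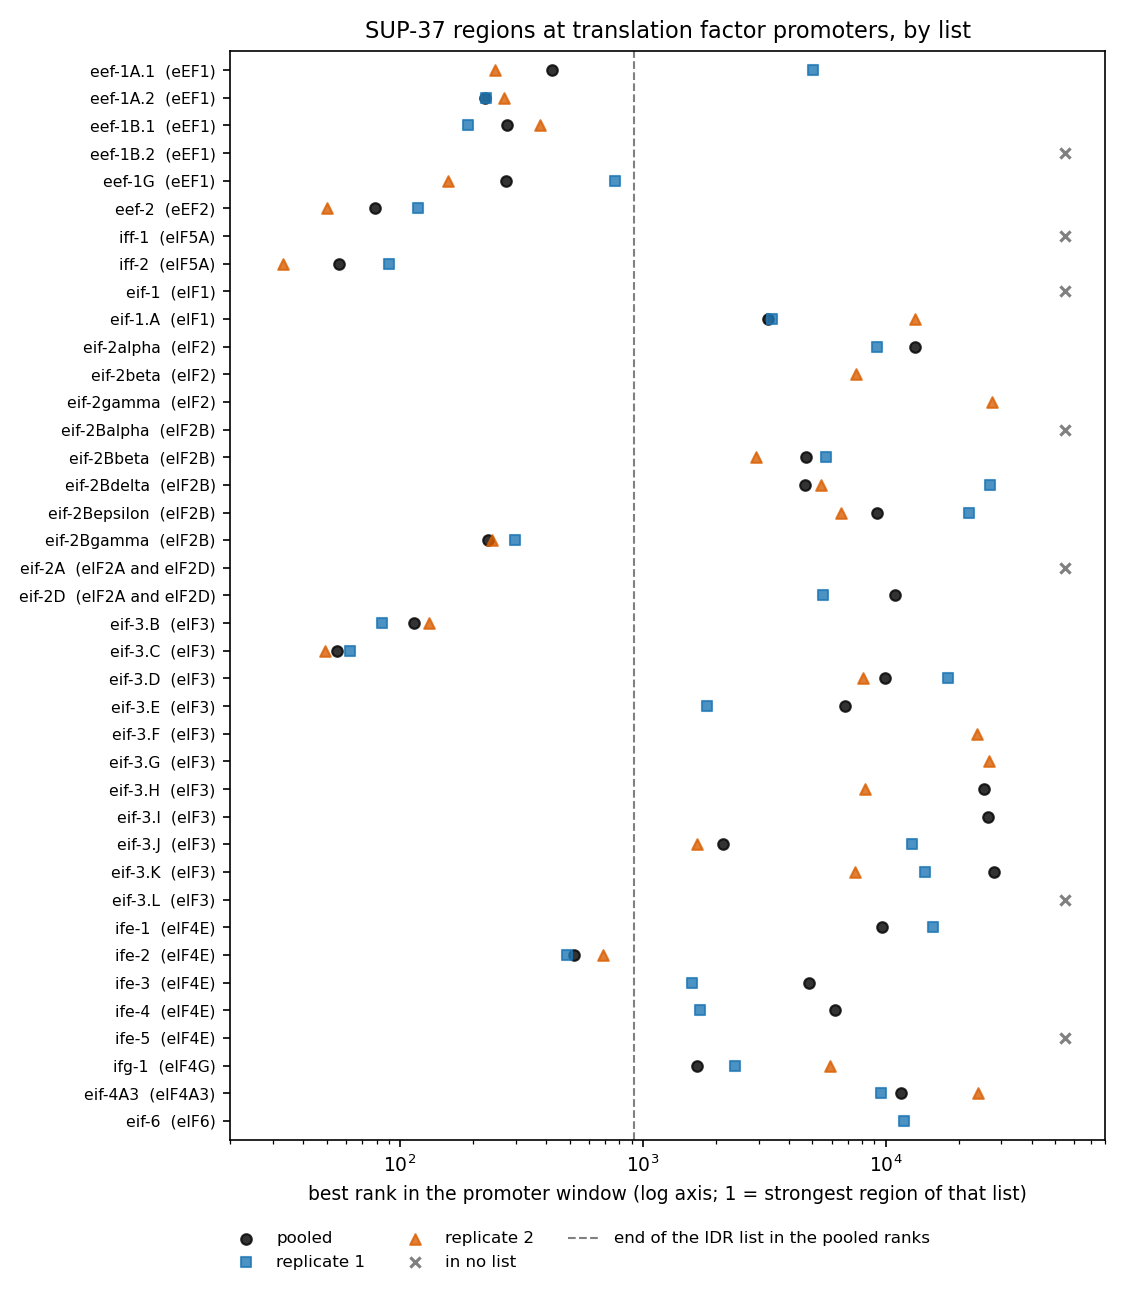
Best rank of any region in the promoter window of each of the 39 translation factor genes, on a log axis, in the pooled list (circles), replicate 1 (squares) and replicate 2 (triangles), with genes in no list marked by a cross. The bound genes lie left of the dashed line at rank 924 in the pooled list, and only eef-1A.1 among them has a symbol right of it, for replicate 1 at rank 5038.

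The bound genes were divided from the rest by the IDR list, and whether a gap in rank stood out depended on the scale. The weakest bound gene was ife-2, with rank 522 and a signal of 153 in the pooled list. The next gene of the set was ifg-1, with rank 1679 and a signal of 91.7. Wider gaps in pooled rank lay among the unbound genes, such as that from eif-2alpha at 13237 to eif-3.H at 25566. Among the 29 genes without an IDR summit, 17 had a weaker region in the pooled list, 5 had one only in a replicate list and 7 had none in any list. Over the whole pooled list, background regions included, 27 of the 39 genes had a summit in the window (69.2%, 52.4 to 83.0), beside 35.0% of all genes. The median best rank was 4650 for these 27 genes and 11659 for the 6985 protein-coding genes with a region in that list. At a cutoff of rank 100 the share was 7.69% of the set and 0.526% of all genes, and at rank 5000 it was 41.0% and 9.55%.

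**Figure D2:**
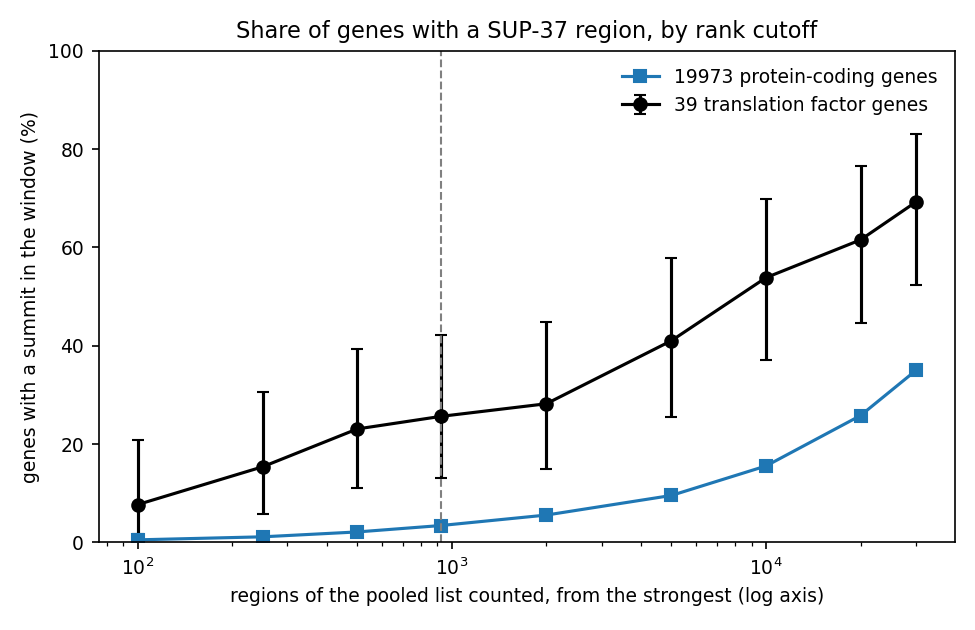
Share of genes with a summit in the promoter window when only the strongest regions of the pooled list are counted, up to the rank on the log axis, for the translation factor genes (circles, with exact 95% intervals) and for all protein-coding genes (squares). The dashed line marks the 924 IDR peaks, where the shares are 25.6% and 3.44%, and the full list gives 69.2% and 35.0%.

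Most bound genes also ranked among the strongest regions of each replicate. The IDR list was made from these same replicates, so this recurrence is not independent evidence. Among the 924 strongest regions of replicate 1, 9 of the 39 genes had a summit in the window, beside 2.94% of all genes. In replicate 2 the count was 10, beside 3.57% of all genes, and 9 genes were found in both replicates, beside 2.33% of all genes. These were all of the bound genes except, in replicate 1, eef-1A.1. With every region counted, 26 genes of the set had one in replicate 1 (33.6% of all genes), 24 had one in replicate 2 (36.7%), and 19 had one in both (19.0%). Of the 11 IDR summits at the set, all had a summit within 50 bp in both full replicate lists, with a largest distance of 39 bp, whereas 77.9% of the 913 other IDR peaks did. At a distance of 200 bp the other peaks were matched in 97.7% of cases and by an overlap of 1 bp in 98.6%. These shares and that of 77.9% at 50 bp all lie inside the interval for the set (71.5 to 100). Counting error alone therefore does not separate the set from the other peaks in the full lists. Among the strongest 924 regions of each replicate 10 of the 11 were matched within 50 bp, beside 51.0% of the other IDR peaks. Within 200 bp the count was again 10 of the 11, beside 62.2%. The interval for the set was 58.7 to 99.8 at both distances. The peaks at the set also ranked higher, with a median best rank of 227 for the bound genes and 387 for all bound genes of the genome, and the part of rank in this agreement was not tested.

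**Figure D3:**
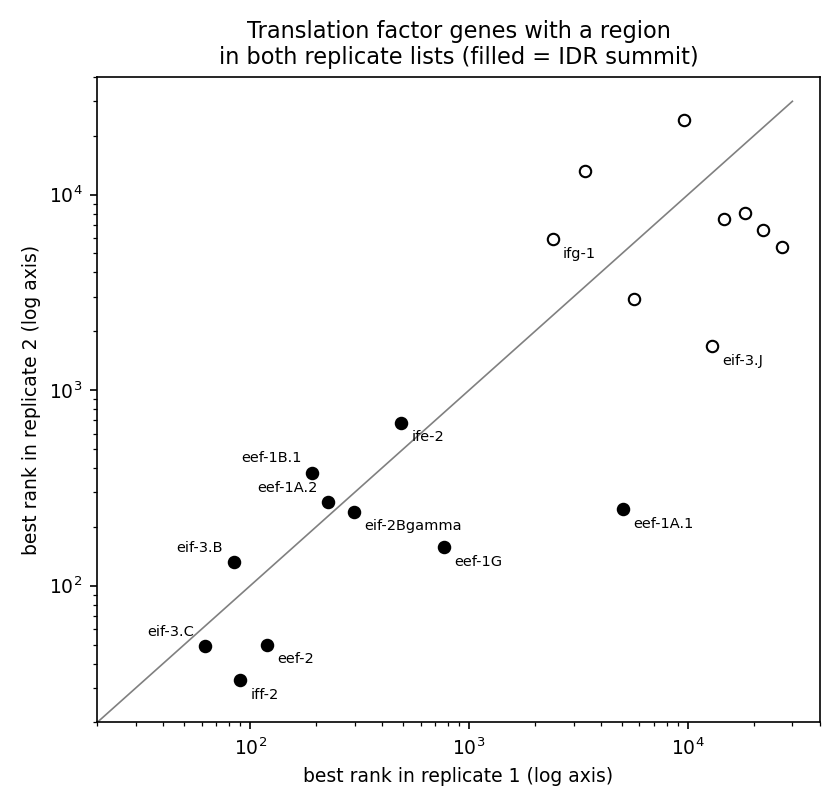
Best rank in replicate 1 against replicate 2, both on log axes, for the 19 translation factor genes with a region in both replicate lists, with genes that have an IDR summit as filled circles and the line of equal ranks in grey. Of the 10 filled circles, 9 lie below rank 924 on both axes, while eef-1A.1 is at rank 5038 in replicate 1 and 247 in replicate 2.

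Among the elongation factors, the strongest peak lay at iff-2, the C. elegans eIF5A gene known for its role in somatic cells. Its peak (WBGene00002065, build ce11, chromosome II, 8561360 to 8561512) had the summit 75 bp upstream of the 5′ end, in intergenic sequence. The pooled signal was 420, with 191 in replicate 1 and 224 in replicate 2, for ranks of 56, 90 and 33. The germline eIF5A gene iff-1, whose protein shares 69.2% of positions with that of iff-2, had no region in any list, and its nearest IDR summit was 18423 bp upstream.

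Both eEF1A genes were bound, although with unequal support from the replicates. Their proteins are identical over all 463 residues and their coding sequences match at 94.0% of positions. At eef-1A.2 (WBGene00001169, chromosome X, 7823127 to 7823510) the summit lay 335 bp upstream, with a pooled signal of 244, signals of 132 and 105 in replicates 1 and 2, and ranks of 223, 226 and 267. At eef-1A.1 (WBGene00001168, chromosome III, 6971924 to 6972307) the summit lay 404 bp upstream, with signals of 171, 47.3 and 108 and ranks of 422, 5038 and 247. Replicate 1 therefore held only a weak region there, and the 5′ end of rfc-4, which encodes a subunit of the replication clamp loader, was nearer to the summit at 137 bp. When each peak was given only to its nearest 5′ end, eef-1A.1 was no longer counted. The miRNA gene cel-mir-5549 lay 31 bp from the eef-1A.1 summit, and the noncoding RNA gene R03G5.8 lay 66 bp from the eef-1A.2 summit. None of the stretches of 32 bases in either peak occurred elsewhere in the reference, so the peaks share no exact stretch of that length. The peaks were not aligned with each other, so similarity with mismatches was not tested.

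The genes of the eEF1 exchange complex differed. At eef-1G (WBGene00008920, chromosome V, 10965510 to 10965893), which encodes its gamma subunit, the summit lay 17 bp upstream, and replicate 2 was stronger, with rank 157 and a signal of 131 beside rank 768 and 75.4 in replicate 1. Its rank in the pooled list was 273. The eef-1G summit also lay in the promoter window of ctf-4, whose 5′ end is 163 bp away. At eef-1B.1 (WBGene00018846, chromosome III, 7973173 to 7973556) the summit lay 21 bp inside the annotated 5′ UTR, with a pooled rank of 277 and ranks of 191 and 378 in replicates 1 and 2. The signals were 216, 142 and 84.5. The noncoding RNA gene F54H12.9 covers that summit, and it also lies in the promoter window of aco-2, the mitochondrial aconitase gene, whose 5′ end is 352 bp away. The other exchange subunit gene, eef-1B.2, had no region in any list, with the nearest IDR summit 198996 bp away. It follows 2 closely spaced genes on the same strand, and the first of them, Y41E3.7, had no region of the pooled list at its promoter.

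The sequences around the summits are shown for bound genes because they are the DNA at which the signal peaked and because eef-1A.2 and eef-1G share a stretch of bases. Each covers the 50 bases on either side of the summit, from build WBcel235 (ce11), in the orientation of the gene, and stops short where annotated exons begin, apart from 7 bases at eef-1G. Capitals mark the run of 15 bases shared by eef-1A.2 and eef-1G and, in ife-2, a 6-base word described with the word counts.
eef-1A.2 (chrX:7823269-7823369, plus strand): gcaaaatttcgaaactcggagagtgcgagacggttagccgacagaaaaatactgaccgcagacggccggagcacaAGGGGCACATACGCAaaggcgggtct
eef-1G (chrV:10965652-10965725, plus strand): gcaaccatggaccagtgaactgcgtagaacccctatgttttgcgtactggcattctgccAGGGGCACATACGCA
iff-2 (chrII:8561392-8561492, minus strand): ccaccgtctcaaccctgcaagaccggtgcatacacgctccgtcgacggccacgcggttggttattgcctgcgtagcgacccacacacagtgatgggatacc
eif-3.B (chrII:14795086-14795186, plus strand): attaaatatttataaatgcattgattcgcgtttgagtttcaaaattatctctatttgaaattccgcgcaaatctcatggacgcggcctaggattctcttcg
ife-2 (chrX:382921-383021, minus strand): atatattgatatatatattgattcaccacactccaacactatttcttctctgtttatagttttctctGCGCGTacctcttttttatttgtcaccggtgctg

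The shared run AGGGGCACATACGCA lay at -310 to -296 bp from the 5′ end at eef-1A.2 and at -8 to 6 bp at eef-1G, in the same orientation relative to both genes. It was looked for after these sequences had been seen. On the nuclear chromosomes it had 5 copies, counted on both strands, of which those at eef-1A.2 and eef-1G lie at IDR summits because the run was found there. Of the other 3 copies, 2 were a pair at a single peak upstream of icd-1, which encodes the beta subunit of the nascent polypeptide-associated complex, 30 and 73 bp from the summit of rank 237. The remaining copy lay 82049 bp from the nearest IDR summit. At most 0.185% of the nuclear genome lies within 100 bp of an IDR summit, and the copies were not tested against this share.

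Words of 6 bases that were more frequent at other SUP-37 peaks than in their flanks occurred at some of the translation factor peaks. With 11 summit windows in the set, this share was not tested against that of the other peaks. The words were chosen on the 913 IDR peaks outside the set, as those with the highest ratio of their share in the 50 bp either side of summits to their share in windows 400 bp away, with both strands counted together. The palindrome GCGCGC had the highest ratio, of 13.1. It was followed by GACGCA with 9.83, by ACGCGC with 9.69 (GCGCGT on the other strand, as in ife-2), by CGCGCC with 9.08 and by GCGCAC with 8.90, tied with the word GCGCCA. Several of the words overlap in their letters. At least 1 of these words occurred in 4 of the 11 summit windows of the set, at eif-3.C, eef-2, eef-1B.1 and ife-2, beside 46.4% of the other IDR peaks, 7.01% of the flanking windows and 8.71% of windows of the same length placed 262 bp upstream of every protein-coding 5′ end. The most frequent word in the other peaks, GACGCA, was in 19.4% of them and 2.74% of the promoter windows, and in the set it was found at eif-3.C only. The palindrome and the word GCGCAC were in none of the 11 windows. The median GC content was 48.5% in the set, from 34.7% to 61.4%, 49.5% in the other peaks and 35.6% in the flanking windows.

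The peak at eef-2, the single eEF2 gene, was among the strongest of the set. It spanned 138 bp (WBGene00001167, chromosome I, 9163441 to 9163578), with the summit 26 bp upstream of the 5′ end and 239 bp from that of clsp-1, the claspin gene on the opposite side. The pooled rank was 79, with ranks of 119 and 50 in replicates 1 and 2 and signals of 365, 170 and 195.

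Of the initiation factors, eIF3 held the strongest peaks but at only 2 of its 11 genes in the set, eif-3.C and eif-3.B, whose proteins belong to the core of the complex. The summit at eif-3.C (WBGene00001226, chromosome I, 9979806 to 9979986) lay 248 bp upstream and ranked 55 overall and 62 and 49 in replicates 1 and 2, with signals of 423, 218 and 198. That at eif-3.B (WBGene00001225, chromosome II, 14795095 to 14795232) lay 268 bp upstream and ranked 114, 84 and 132, with signals of 325, 193 and 140. No other protein-coding promoter window held either summit. Together with iff-2 and eef-2 these were the 4 peaks of the set narrower than the usual 384 bp of the list. The subunit A gene is named egl-45 in the annotation, falls outside the symbol rule and had no region at its promoter in any list.

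The other 9 eIF3 genes had weak regions or none. The best was eif-3.J at rank 2130 in the pooled list, with rank 1675 in replicate 2 and 12866 in replicate 1. eif-3.E followed at 6826, with rank 1833 in replicate 1 and no region in replicate 2, and eif-3.D, eif-3.H, eif-3.I and eif-3.K ranked between 9981 and 27966. eif-3.F and eif-3.G had a region only in replicate 2, at ranks 23817 and 26775. eif-3.L had none, but 97.3% of the stretches of 32 bases in its promoter window have another copy in the reference, so reads there may not be placed uniquely. In the windows of the other unbound genes this share was at most 1.37%.

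One of 5 eIF2B genes was bound, and its peaks lay beside a small RNA gene. The gene is eif-2Bgamma (WBGene00004090), and its window held a pair of IDR summits on chromosome II, at 701 bp upstream with rank 231 (6968157 to 6968540) and at 906 bp upstream with rank 391 (6968362 to 6968745). Replicates ranked the first at 297 and 239 and the second at 346 and 441. Both summits lay in an intron of C15F1.5 and within 200 bp of sup-39, which is annotated as a snRNA gene and which the second summit overlaps. In each of these peaks 27.5% of the stretches of 32 bases have another copy in the reference, against none in the other 9 peaks of the set. With a window of 500 bp upstream to 100 bp downstream, or without peaks within 200 bp of a snRNA, tRNA or snoRNA gene, eif-2Bgamma was not counted. The genes of the other subunits had pooled ranks of 4650 (eif-2Bdelta), 4689 (eif-2Bbeta) and 9207 (eif-2Bepsilon), and eif-2Balpha had no region, with the nearest IDR summit 3067 bp downstream of its 5′ end.

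None of the genes of eIF2 itself was bound. In eif-2alpha, whose protein is phosphorylated in stress, the best region had rank 13237 in the pooled list and 9215 in replicate 1, and eif-2beta and eif-2gamma had a region only in replicate 2, at ranks 7591 and 27536. Of the start codon factors, eif-1.A had rank 3271 in the pooled list, with 3399 and 13273 in the replicates, and eif-1 had no region. Of the genes of non-canonical initiator tRNA factors, eif-2D had rank 10965 and eif-2A no region.

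Among the 5 genes of the cap-binding protein eIF4E, a peak lay at ife-2 alone. It is a somatic isoform known in C. elegans for effects on lifespan. The summit (WBGene00002060, chromosome X, 382779 to 383162) lay 262 bp upstream, with a pooled rank of 522, ranks of 488 and 683 in replicates 1 and 2, and signals of 153, 91.3 and 61.5. The isoform genes ife-3 and ife-4 had ranks of 4844 and 6182 in the pooled list and regions in replicate 1 only, at ranks 1600 and 1724. ife-1 ranked 9684, and ife-5, whose protein is the nearest relative of IFE-1 in the set at 69.7% identity, had no region. The single eIF4G gene ifg-1 ranked 1679 in the pool and 2407 and 5925 in replicates 1 and 2, with its summit at -691 bp from the 5′ end. eif-4A3, which encodes the helicase of the exon junction complex, ranked 11534, and eif-6, a factor of the large ribosomal subunit, had a region only in replicate 1, at rank 11872.

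**Figure D4:**
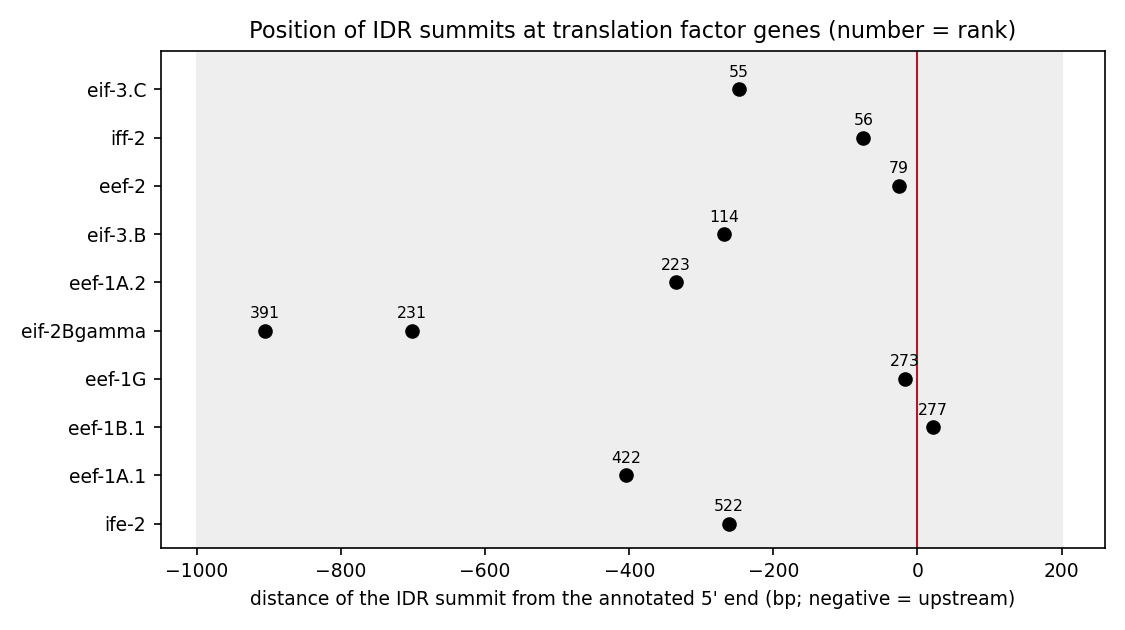
Distance of each of the 11 IDR summits from the annotated 5′ end of the 10 bound translation factor genes, in bp with upstream negative, with the rank printed above each point and the promoter window shaded. Summits at eef-2, eef-1G and eef-1B.1 lie within 26 bp of the 5′ end, that at iff-2 at 75 bp, and the others between 248 and 906 bp upstream.

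Translation factor genes often share their upstream sequence with a neighbour, and bound genes occurred in every arrangement. A gene on the opposite strand started within 1000 bp upstream of 20 of the 39 genes, beside 17.4% of all protein-coding genes. Of these 20 genes, 5 were bound, namely eef-1A.1, eef-1B.1, eef-1G, eef-2 and iff-2, beside 8.50% of all genes with this arrangement. In C. elegans, closely spaced genes on one strand can be transcribed together from the promoter of the first. A same-strand neighbour at most 500 bp upstream was present at 8 genes of the set, of which eif-2Bgamma and eif-3.C were bound, beside 2.50% of all such genes. Counting the promoter of the first gene of such a cluster as well added no gene to the 10. Of the remaining 11 genes 3 were bound, eef-1A.2, eif-3.B and ife-2, beside 2.33% of all such genes. For the genes without a peak the nearest IDR summit lay at a median of 58022 bp from the 5′ end, and the closest were those of eif-6 at 2010 bp, eif-2Balpha at 3067 bp and eif-1 at 5787 bp.

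Other genes of translation and its control were bound in 6 of 68 cases (8.82%), beside the 3.44% of all genes. No interval was computed for this share, and its difference from that of all genes was not tested. Of 8 further genes that were grouped here with initiation and found in the annotation, 3 were bound. They were drr-2, which encodes an eIF4H homologue (rank 34), ifet-1, an eIF4E-binding translational repressor (rank 37), and clu-1 (rank 622). The drr-2 summit also lay in the promoter window of set-16. The ifet-1 summit lay 509 bp upstream and nearer to the 5′ end of rps-1, a gene of the small ribosomal subunit, at 259 bp. That of clu-1 lay nearer to prp-40. One of 4 genes of the eIF2 kinases and their response was bound, pek-1, the kinase of endoplasmic reticulum stress (rank 755, with 1896 in replicate 1 and 388 in replicate 2). One of 8 genes of the TOR pathway was bound, rheb-1, the GTPase that activates TOR (rank 401), in a window shared with spk-1, which is nearer. One of 31 aminoacyl-tRNA synthetase genes was bound, ears-2 (rank 279). No IDR summit lay at the 4 genes of termination and recycling, the 2 poly(A)-binding protein genes, the 7 genes of elongation factor modification or the 4 genes of mitochondrial translation factors.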

How the data were processed

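The deposited lists hold regions with the authors' signal value, called on ce11 per replicate and on the pooled alignments with 2 control alignments, and an IDR-thresholded list made from these, per the file descriptions. No source used here names the caller, aligner, versions or IDR cutoff. Controls were not analysed here. Coordinates are 1-based, on WBcel235 (the assembly of ce11), with Ensembl release 115 genes, and sequence is from the RefSeq copy of that assembly. A summit is the region start plus the deposited offset. The signal was used only to rank within a list.

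Shares, distances, word counts and sequence comparisons were computed in Python 3.11.15 with SciPy 1.17.1 and Biopython 1.88, checked on made-up genes and peaks. Words had to occur in at least 10% of summit windows, and the 5 of highest ratio, with ties, were kept. Protein identity is over a global alignment of the longest coding transcripts, per position of the longer protein. Named genes were all bound members, the other members by subunit group, and all bound genes of the pathway lists, in which 68 of 83 names matched. Members and lists were chosen with earlier results of these data known.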

Additional observations from a re-analysis of the deposited data

How the results depend on the processing

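The count of bound translation factor genes was 10, and 9 or 10 under each of the 10 alternatives run. No gene was gained under any of them. The gene lost was eif-2Bgamma with the narrow window (500 bp upstream to 100 bp downstream) or without peaks near small RNA genes, eef-1A.1 with the nearest 5′ end within 2000 bp or with replicate 1 alone, and ife-2 with the strongest 462 peaks. The ratio to other genes ranged from 5.45, when clusters on one strand were counted from their first gene, to 11.9 with the strongest 462 peaks. With single replicates it was 7.27 to 7.95. The median rank of bound genes was 223 to 227 under the 8 alternatives that rank in the pooled list, and 198 and 191 within replicate 2 and replicate 1 alone. All 11 summits were matched in both replicates at 50 bp, at 200 bp and by overlap of 1 bp. The other IDR peaks went from 77.9% to 97.7% and 98.6%, so the shares came closer at the wider settings. Each of these shares, that at 50 bp included, lay inside the interval for the set (71.5 to 100). The alternatives with clusters and small RNA genes were chosen after seeing the data. Lists without counts give no limit of detection, so a gene without a region is not shown to be unbound.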

Other observations

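Some pairs of peaks at translation factor genes shared runs of bases, which were noticed in these data and not tested. Runs of at least 11 bases were shared by 3 of the 55 pairs of the set (5.45%), beside 2.37% of all 426426 pairs of IDR peaks. For runs of at least 15 bases the shares were 2 of 55 (3.64%) and 0.236%. The longest run, of 16 bases, was common to the peaks at eef-2 and eef-1A.1, the genes of the factors of translocation and of tRNA delivery. For the copy in the eef-1A.1 peak the nearest gene was rfc-4, with the copy 156 bp upstream of its 5′ end. It had 4 copies on the nuclear chromosomes, of which those at eef-2 and eef-1A.1 lie at IDR summits because the run was found there. Another was 381 bp upstream of rpl-11.2, a gene of the large ribosomal subunit, at the summit of rank 166. The fourth copy was 203 bp upstream of pbs-1, a proteasome gene, 50685 bp from the nearest IDR summit. The eIF3 genes eif-3.C and eif-3.B shared a run of 11 bases with 63 copies in the genome. Within 100 bp of an IDR summit lay 4 of them, those at both genes included. At most 0.185% of the nuclear genome lies that close to an IDR summit, and the copies were not tested against this share.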
